A study of Mus musculus with 4 samples.

Results

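The 10 genes described here encode regulators of the mitochondrial pathway of apoptosis, the BCL2 family. They were chosen by name, as the Ensembl genes whose symbols are Bcl2, Bcl2l1, Bcl2l11, Mcl1, Bax, Bak1, Bbc3, Pmaip1, Bid and Bad, and all 10 were found among the 43629 genes listed in each library. The study sequenced poly(A) RNA in 4 libraries of mouse embryonic stem cells, all with a 129/Ola background and all kept in serum plus LIF. The knockout libraries KO1 and KO2 come from cells without functional Drosha, the nuclear RNase that starts microRNA maturation. In KO1 the proline-rich region of the gene is deleted and in KO2 its R/S-rich region, both lines at passage 7, and their titles bear the mark d5, which the labels do not explain. The wild-type libraries WT1 and WT2 are of E14, a standard mouse embryonic stem cell line, at passages 33 and 42, and are labelled as re-used. Each knockout allele and each wild-type passage is therefore 1 library, and genotype, passage, the origin of the library and the mark d5 cannot be told apart. The labels do not state that the libraries of a group were grown separately. The p-values therefore set the difference between groups against the spread within these samples only, and that spread may be technical.

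BCL2 family proteins meet at the outer mitochondrial membrane. The effectors BAX and BAK form the pores through which cytochrome c escapes, pro-survival members such as BCL2, BCL-XL and MCL1 hold them in check, and BH3-only proteins such as BIM, BID, BAD, PUMA and NOXA relay stress by binding the other groups. Embryonic stem cells are known to sit close to the threshold for apoptosis, and MCL1 is among the members they depend on.

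MicroRNAs are known to act on several of these mRNAs, and the sequences below show where the main embryonic stem cell families could pair with them. Mature microRNAs were not measured in these poly(A) libraries. The sequences are RefSeq entries for build GRCm38.p6, 5′ to 3′, with the seed (bases 2 to 8) in capitals. The first 4 share the seed of the miR-290 and miR-302 family, the next pair that of the miR-17 family, and the last pair that of miR-92 and miR-363.
mmu-miR-291a-3p: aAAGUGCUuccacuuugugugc
mmu-miR-294-3p: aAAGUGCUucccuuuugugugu
mmu-miR-295-3p: aAAGUGCUacuacuuuugagucu
mmu-miR-302b-3p: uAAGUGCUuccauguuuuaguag
mmu-miR-17-5p: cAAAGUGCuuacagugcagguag
mmu-miR-106a-5p: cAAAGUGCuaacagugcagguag
mmu-miR-92a-3p: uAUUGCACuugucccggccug
mmu-miR-363-3p: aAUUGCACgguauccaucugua

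Matches to the first of these seeds (AGCACTT on the sense strand) occurred in the longest annotated 3′ UTR of 3 of the 10 genes, Bcl2l11, Bcl2 and Mcl1. Bcl2l11 held 3 of them, Bcl2 held 2 and Mcl1 held 1. The sites are shown with up to 11 flanking bases on each side, on the strand of the gene, with the match in capitals, because they are the stretches to which this seed could pair.
Bcl2l11, chr2:128159569-128159597, plus strand: atgccgagtaaAGCACTTgtcttccacaa
Bcl2l11, chr2:128159766-128159794, plus strand: cctggtggaggAGCACTTtctaacctgtg
Bcl2l11, chr2:128160440-128160468, plus strand: tccccgactggAGCACTTtactgtctcag
Bcl2, chr1:106540031-106540059, minus strand: acagttaagggAGCACTTtcatgtagttc
Bcl2, chr1:106538825-106538853, minus strand: gatggcacctgAGCACTTcatcctggata
Mcl1, chr3:95662631-95662659, plus strand: tcggacttcagAGCACTTtatgtagttga
Long 3′ UTRs hold such matches often. Among tested genes whose 3′ UTR was within 20% of the member's own length, the same match was present in 40.2% of 1085 genes for Bcl2l11 (4218 bases), 50.3% of 719 genes for Bcl2 (5086 bases) and 26.4% of 1995 genes for Mcl1 (2353 bases). A match is a description of the letters and not a shown site of action.

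The miR-17 match (GCACTTT) overlaps the first one by all but 1 base, and 4 of the sites above, namely 2 of Bcl2l11, 1 of Bcl2 and the 1 of Mcl1, hold both. The only match to that seed outside them was in Bid. Of 3′ UTRs of similar length, 33.5% held the miR-17 match for Bcl2l11, 40.6% for Bcl2, 20.5% for Mcl1 and 13.9% for Bid. The miR-92 and miR-363 match (GTGCAAT) was present in 4 members. Bcl2l11, which encodes BIM and is a known target of these clusters, held 2 of them, and Mcl1, Bak1 and Bad held 1 each. They are shown because pro- and anti-apoptotic members hold the same match.
Bcl2l11, chr2:128161163-128161191, plus strand: caaatgtctctGTGCAATtgtgttccctt
Bcl2l11, chr2:128162438-128162466, plus strand: ccactgtacctGTGCAATactgctgtaaa
Mcl1, chr3:95660824-95660849, plus strand: ccttgtgaGTGCAATaggggactctt
Bak1, chr17:27019810-27019837, minus strand: ggaaataaactGTGCAATgcccccaaca
Bad, chr19:6951670-6951698, plus strand: ccttccggtgcGTGCAATagccacggagg
Of 3′ UTRs of similar length, 18.2% held this match for Bcl2l11, 10.8% for Mcl1, 5.20% for Bak1 and 4.48% for Bad. Over 10 seed families searched, which also included let-7, miR-15, miR-19, miR-29, miR-34, miR-125 and miR-221, Bcl2l11 held 11 matches, Bcl2 and Mcl1 5 each, and Pmaip1 none. A site that holds both the miR-290 and the miR-17 match is counted once for each seed. Bcl2l11, Bcl2 and Mcl1 also have the longest 3′ UTRs of the members. The 3′ UTR of Bbc3, which encodes PUMA, held 2 matches to miR-29 and 1 to miR-221 and miR-222, and that of Bcl2l1 held 1 match to let-7. The 3′ UTR of Bax is 224 bases long and held 1 match, to miR-34.

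Drosha was measured at 158 CPM (KO1), 158 CPM (KO2), 364 CPM (WT1) and 357 CPM (WT2), so the targeted gene followed the labels. CPM is a count scaled by the size of its library, here after TMM factors that make libraries comparable. Library totals ran from 29264632 to 42322129 counts, and 1 count was worth 0.0236 to 0.0342 CPM before scaling. The knockout libraries differed from each other by little more than counting noise, with a chi-square per degree of freedom of 2.26 over genes, while that of the wild-type libraries was 167. Spread between the groups' samples therefore came mostly from the wild types. All 8 embryonic stem cell markers were expressed in every library, with summed levels of 6390 and 6490 CPM in the knockout pair against 5638 and 6844 CPM in WT1 and WT2. Single markers moved in both directions. Both knockouts lay above both wild types for 3 of the 8 and below both for 4, against 36.5% and 34.8% of all tested genes. Markers of primitive endoderm summed to 16.7 and 14.6 CPM in the knockouts, 64.6 CPM in WT1 and 185 CPM in WT2, none of the 8 was at 0, and Cubn passed the test as lower. Neural markers summed to 131 and 132 CPM against 76.8 and 74.7 CPM, with Dcx at 0 in all libraries and Pax3 at 0 in at least 1. Of 6 tested, 2 passed as higher, Tubb3 among them. Of all tested genes 3.51% passed as higher and 1.94% as lower. Trophoblast markers summed to 44.8 and 42.9 CPM against 37.8 and 20.5 CPM. Markers of feeder fibroblasts summed to 58.4 and 53.4 CPM against 39.9 and 32.4 CPM, of which Dcn, Lum, Postn and Col3a1 were each at 0 in at least 1 library. With the GC and length trends of each library removed, as described further on, the median log2 fold change of the neural list went from 0.76 to 0.11 (Tubb3 from 1.13 to 0.15), that of the trophoblast list from 0.75 to 0.03, that of the feeder list from 1.31 to 0.58 and that of the primitive endoderm list from -2.76 to -3.02. The median of the stem cell list was -0.15 before and -0.14 after. The part of these cell type markers in the levels of the BCL2 family was not tested, and in bulk RNA a change in the share of cells cannot be told apart from a change in RNA per cell.

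All 10 genes passed the filter on low counts, and none passed the test between the groups. With edgeR's quasi-likelihood test and Benjamini-Hochberg adjustment over 17022 genes at a threshold of 0.05, 0 of 10 were called, where 5.45% of all tested genes were called (3.51% higher and 1.94% lower in the knockouts). The smallest edgeR adjusted p over all tested genes was 0.0482, so every call lay just under the threshold. A call and a near miss therefore differed little. At an unadjusted p under 0.05 there were 4 of 10, Bax, Bbc3, Bad and Mcl1, where 37.1% of all genes lay under that value. DESeq2 called 4, namely Bax, Bbc3 and Bad as higher and Pmaip1 as lower (adjusted p = 0.00126, 0.000269, 0.0134 and 0.0471), against 22.7% of the genes for which it gave an adjusted p. Without the filter on low counts edgeR called 2, Bax and Bbc3, against 10.1% of all genes. With WT1 or WT2 left out the spread came from the knockout pair alone, so the calls of those fits are not given. Both knockout values lay outside the range of the wild types for 8 of 10 genes, 5 above and 3 below, and 71.2% of all tested genes did the same (36.5% above and 34.8% below). The median log2 fold change, knockout over wild type, was 0.32 over the 10 genes and -0.02 over all tested genes. With 2 libraries a group, an exact permutation test of a single gene cannot give a two-sided p below 0.333.

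**Figure D1:**
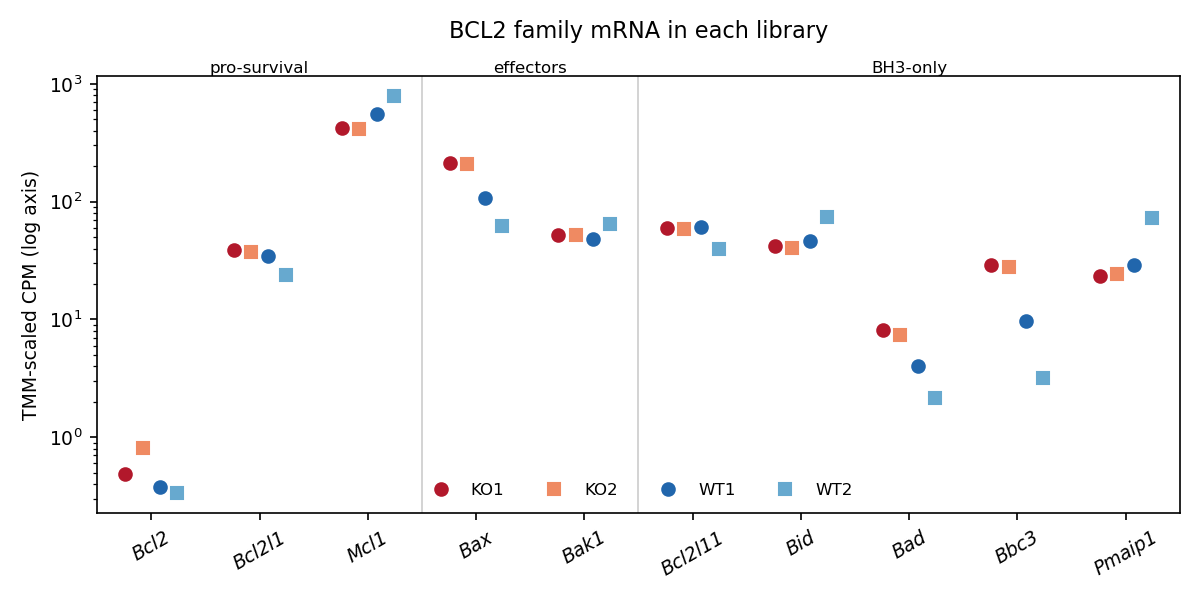
TMM-scaled CPM on a log axis for each of the 10 genes, 1 point per library, ordered by class. The knockout points of a gene nearly coincide except for Bcl2, whereas WT1 and WT2 stand apart, most of all for Bbc3 (9.69 and 3.17 CPM) and Pmaip1 (29.0 and 72.1 CPM).

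Among the pro-survival genes Mcl1 was by far the most abundant mRNA. Mcl1 (ENSMUSG00000038612, chromosome 3, 95658788 to 95663176, build mm10) encodes a short-lived guardian that binds BAK and BIM. It was at 419 CPM (KO1), 418 CPM (KO2), 556 CPM (WT1) and 794 CPM (WT2). Both knockouts lay below both wild types, and WT1 was the nearer of these. The means were 418 ± 1.16 and 675 ± 168 CPM (SD, n = 2 each), and the log2 fold change of -0.69 ± 0.21 (SE) did not pass in edgeR (adjusted p = 0.0985). The difference within the wild types, 0.51 on the log2 scale for WT2 over WT1, was larger than that between KO1 and WT1 (-0.41).

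Bcl2l1 (ENSMUSG00000007659, chromosome 2, 152780668 to 152831728) encodes BCL-XL, the other pro-survival protein of note in these cells, and a short pro-apoptotic form that gene counts do not separate. Its level was 39.1 CPM (KO1), 37.6 CPM (KO2), 34.7 CPM (WT1) and 23.7 CPM (WT2). The knockouts were just above WT1 and further above WT2, with a log2 fold change of 0.39 ± 0.23 and an edgeR adjusted p of 0.269. Bcl2 itself (ENSMUSG00000057329, chromosome 1, 106538178 to 106714274), the founding member, was close to the limit of detection, with 15 and 36 counts (KO1 and KO2) against 15 and 12 counts (WT1 and WT2). These counts correspond to 0.486, 0.811, 0.376 and 0.333 CPM. The exact Poisson 95% interval, which covers counting error only, ran from 0.272 to 0.802 CPM in KO1 and from 0.210 to 0.620 CPM in WT1, so these libraries could not be separated. Bcl2 was the only member with a difference past 1.5-fold between the knockouts (0.68 on the log2 scale for KO2 over KO1, where 4.5% of all genes passed that size), and its log2 fold change was 0.88 ± 0.43 (edgeR adjusted p = 0.207).

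Of the effectors, Bax had knockout values above both wild types and Bak1 did not, and neither passed the test. Bax (ENSMUSG00000003873, chromosome 7, 45461697 to 45466898), whose product moves from cytosol to mitochondria before it forms pores, was at 212 CPM (KO1), 209 CPM (KO2), 108 CPM (WT1) and 61.8 CPM (WT2). The means of 211 ± 1.73 and 85.0 ± 32.7 CPM (SD, n = 2 each) gave a log2 fold change of 1.31 ± 0.30, and the edgeR adjusted p of 0.0671 was the lowest of the 10 genes. Over 192 bases (12.2%) its exons are shared with Gm45808 on the same strand, where reads cannot be told apart. Bak1 (ENSMUSG00000057789, chromosome 17, 27019810 to 27029009), whose product is held at the mitochondrial membrane, was at 52.2, 51.6, 48.2 and 65.0 CPM in KO1, KO2, WT1 and WT2. Its knockout values lay between the wild types, with a log2 fold change of -0.13 ± 0.19 and an edgeR adjusted p of 0.648. Exons of Bak1 overlap those of Ggnbp1 on the opposite strand over 437 bases (18.2% of their length). Ggnbp1 had 597, 818, 360 and 162 counts in KO1, KO2, WT1 and WT2, beside 1609, 2289, 1926 and 2340 counts for Bak1. The libraries are labelled reverse-stranded, but whether counting used strand is not given in the sources used here, so the level of Bak1 is uncertain.

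Among the BH3-only genes none passed, and knockout values lay above both wild types for Bbc3 and Bad and below both for Pmaip1 and Bid. Bbc3 (ENSMUSG00000002083, chromosome 7, 16308393 to 16318205), which encodes PUMA, a main arm of the p53 response, was at 28.7 CPM (KO1), 28.1 CPM (KO2), 9.69 CPM (WT1) and 3.17 CPM (WT2). The means were 28.4 ± 0.432 and 6.43 ± 4.62 CPM (SD, n = 2 each). Its log2 fold change of 2.14 ± 0.57 was the largest in size of the 10 genes but did not pass (edgeR adjusted p = 0.0816), and the wild types differed by -1.60 on the log2 scale for WT2 over WT1. The knockout mean was 2.93-fold above WT1 and 8.97-fold above WT2.

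Bad (ENSMUSG00000024959, chromosome 19, 6941861 to 6951899), whose protein is kept inactive by survival kinases and 14-3-3 proteins, had the same order of libraries at a lower level. It was measured at 8.17, 7.44, 4.03 and 2.14 CPM in KO1, KO2, WT1 and WT2, with a log2 fold change of 1.34 ± 0.37 and an edgeR adjusted p of 0.0873. Over 524 bases, 20.5% of the exon length of Bad, it overlaps Gpr137 on the opposite strand. Gpr137 had 293, 338, 210 and 90 counts in KO1, KO2, WT1 and WT2, beside 252, 330, 161 and 77 counts for Bad. The level of Bad is therefore uncertain in the way described for Bak1.

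Pmaip1 (ENSMUSG00000024521, chromosome 18, 66458533 to 66465565) encodes NOXA, which binds MCL1 and promotes its breakdown. It was at 23.6 CPM (KO1), 24.3 CPM (KO2), 29.0 CPM (WT1) and 72.1 CPM (WT2). WT2 alone stood apart, by 1.31 on the log2 scale over WT1, and the log2 fold change of -1.08 ± 0.47 did not pass (edgeR adjusted p = 0.174). Without WT2 that value was -0.27, and without WT1 it was -1.59. Thus Bbc3 and Pmaip1, both textbook p53 targets, lay on opposite sides of the wild types, and Trp53 itself, chosen after its values were seen, was at 387 and 379 CPM in the knockout pair against 315 and 307 CPM in WT1 and WT2 (log2 fold change 0.30 ± 0.11, edgeR adjusted p = 0.137). With the GC and length trends removed Trp53 was at -0.03 ± 0.09 (edgeR adjusted p = 0.888). Bbc3 was then at 0.49 ± 0.35 and Pmaip1 at -0.54 ± 0.36, and the knockouts lay between the wild types for Pmaip1.

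Bid (ENSMUSG00000004446, chromosome 6, 120891930 to 120916853), which links death receptors to mitochondria once caspase 8 has cut it, was at 41.7, 40.4, 46.3 and 73.4 CPM in KO1, KO2, WT1 and WT2. The knockouts lay slightly below WT1 and well below WT2 (log2 fold change -0.54 ± 0.26, edgeR adjusted p = 0.200). Its exons overlap Bcl2l13 on the opposite strand over 628 bases (17.7%), with the same uncertainty. Bcl2l13 had 1754, 2614, 2819 and 2806 counts in KO1, KO2, WT1 and WT2, beside 1287, 1791, 1847 and 2644 counts for Bid. Casp8, named after its values were seen, was at 1.13, 0.924, 1.10 and 8.05 CPM, so WT2 held most of the measured mRNA of this protease.

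Bcl2l11 (ENSMUSG00000027381, chromosome 2, 128126038 to 128162547), which encodes BIM and holds the most seed matches shown above, was nearly level in 3 libraries. It was at 59.3 CPM (KO1), 59.0 CPM (KO2), 61.0 CPM (WT1) and 39.3 CPM (WT2). Against WT1 the knockouts differed by -0.04 and -0.05 on the log2 scale, and against WT2 by 0.59 in both. The log2 fold change over both wild types was 0.24 ± 0.25 (edgeR adjusted p = 0.507), and its sign turned without WT2 (-0.04). Of the other members with matches to the miR-290 and miR-302 seed, Bcl2 had values near the limit of detection and Mcl1 had lower values in the knockouts, as given above.

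**Figure D2:**
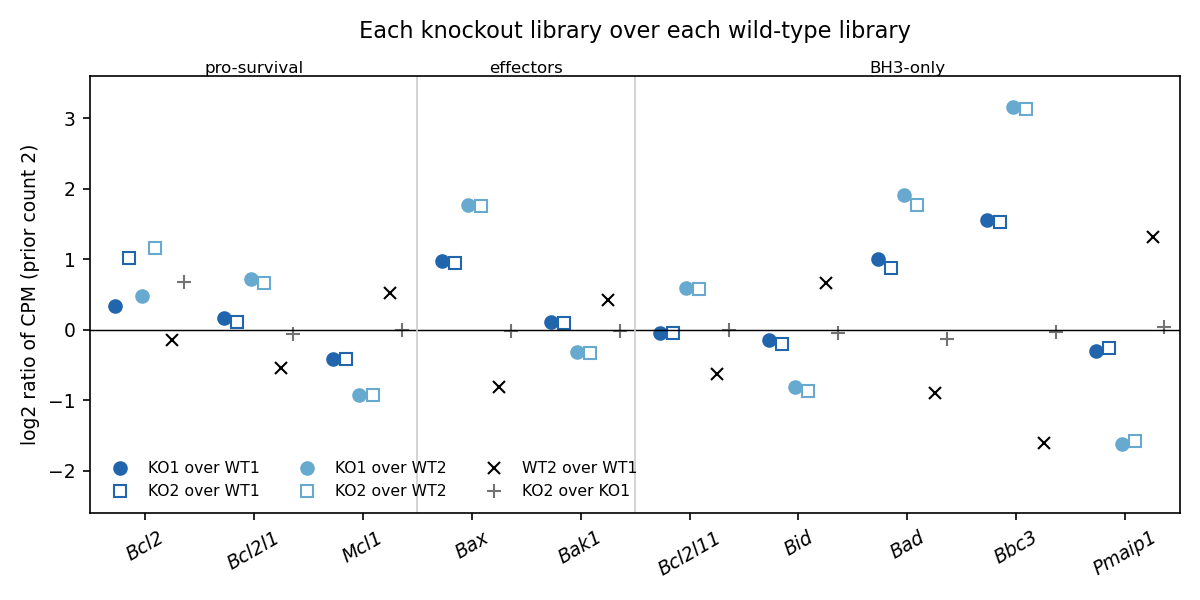
Log2 ratio of CPM for each knockout library over each wild-type library (filled KO1, open KO2, dark blue over WT1, light blue over WT2), with WT2 over WT1 as crosses and KO2 over KO1 as plus signs. Ratios over WT2 lie further from 0 than ratios over WT1 for all 10 genes, and Bcl2 is the gene for which KO1 and KO2 stand apart (ratios from 0.33 to 1.16).

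The wild-type libraries differed from each other in most of these genes. On the log2 scale WT1 was nearer than WT2 to the knockout mean for 10 of 10 genes, a measure chosen after the values were seen, and this held for 68.3% of all tested genes. With the GC and length trends removed it held for 8 of 10 genes, not for Bax and Bcl2l1, and for 60.4% of all tested genes. Past 1.5-fold, WT2 differed from WT1 in 6 of 10 genes, where 39.0% of all tested genes did. The median size of the log2 ratio of WT2 over WT1 was 0.65 over the 10 genes and 0.45 over all tested genes. Between the knockouts it was 0.04 over the 10 genes and 0.07 over all tested genes, although KO1 and KO2 carry different deletions. With KO1 and KO2 summed and counted as 1 sample, an alternative added after seeing the data, 0 of 10 genes passed in edgeR and 2 had an unadjusted p under 0.05 (Bax and Bbc3), where 0 of 17795 genes passed and 10.6% had such a p.

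GC content moved with the differences of some of these genes and not of others. Bbc3 (65.2% GC in its longest annotated transcript), Bax (63.5%), Bad (57.1%), Bak1 (57.1%) and Bcl2l1 (55.9%) were in the fifth of tested genes richest in GC, whose median log2 fold change was 0.90 and whose median log2 ratio of WT2 over WT1 was -0.46. Over the 696 tested genes above 60% GC the median log2 fold change was 1.38, next to 1.31 for Bax and 2.14 for Bbc3. At the other end Pmaip1 (42.1%) was in the fifth poorest in GC, where the medians were -0.58 and 0.27. Mcl1 (48.7%) and Bid (51.3%) were among the genes of intermediate GC content, with medians of -0.09 and 0.04. Their own log2 fold changes, -0.69 and -0.54, were larger in size than that median. Bak1, Bcl2 and Bcl2l11 lay on the other side from the genes of their GC range. Bak1 had a log2 fold change of -0.13 and a log2 ratio of WT2 over WT1 of 0.43. Bcl2 (46.3%) and Bcl2l11 (48.0%) were in a range with medians of -0.38 and 0.17, while their own values were 0.88 and -0.15 for Bcl2 and 0.24 and -0.63 for Bcl2l11.

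After the trends of each library with GC content and transcript length had been removed, the picture for the GC-rich members was different. The trends differed between the groups, so removing them can also take out differences between the groups themselves. Bax then stood at 117 CPM (KO1), 121 CPM (KO2), 152 CPM (WT1) and 132 CPM (WT2), with the knockouts below both wild types and a log2 fold change of -0.26 ± 0.11 and an edgeR adjusted p of 0.248. Bbc3 stood at 14.9, 15.4, 14.3 and 7.26 CPM in KO1, KO2, WT1 and WT2, with the knockouts close to WT1 and a log2 fold change of 0.49 ± 0.35 and an edgeR adjusted p of 0.439. Bcl2l1 turned to -0.23 ± 0.13 and Bak1, at 38.4, 39.0, 57.0 and 96.5 CPM, to -0.99 ± 0.28 (edgeR adjusted p = 0.340 and 0.146).

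Bad, the remaining GC-rich member, was at 0.55 ± 0.27 where it had been at 1.34 (edgeR adjusted p = 0.289).

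The members outside the fifth richest in GC were as follows after this removal. Mcl1 stood at 438, 436, 551 and 725 CPM in KO1, KO2, WT1 and WT2, a log2 fold change of -0.54 ± 0.16, and Bid at -0.65 ± 0.25, both still with the knockouts below both wild types (edgeR adjusted p = 0.155 and 0.216). Bcl2 was at 1.23 ± 0.41, and Bcl2l11 at 0.48 ± 0.24 with 64.3 and 63.9 CPM in the knockouts against 55.9 and 36.2 CPM in the wild types (edgeR adjusted p = 0.176 and 0.294). For Pmaip1 (-0.54 ± 0.36, edgeR adjusted p = 0.405) the knockouts at 28.2 CPM each lay between 27.5 CPM in WT1 and 54.3 CPM in WT2. Groups did not overlap for 9 of 10 genes, 4 higher and 5 lower, where 61.1% of all tested genes did not overlap, and the median log2 fold change of the 10 genes was -0.24. None passed, and 3 of 10, Mcl1, Bcl2 and Bak1, had an unadjusted p under 0.05 in edgeR, where 25.3% of all tested genes did.

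**Figure D3:**
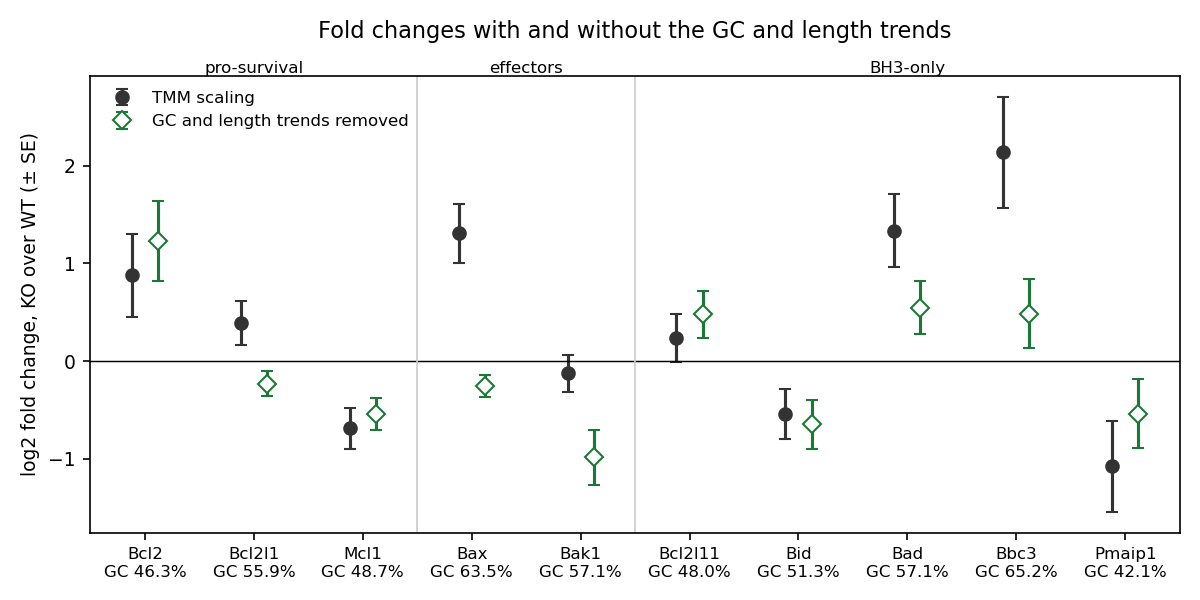
Log2 fold change, knockout over wild type, with its SE for each gene, with TMM scaling (black circles) and with the GC and length trends of each library removed (open green diamonds). The GC content of the longest transcript stands under each name. Bax goes from 1.31 to -0.26 and Bbc3 from 2.14 to 0.49, while Mcl1 goes from -0.69 to -0.54.

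Levels of different genes can be compared per length, as CPM per kb of annotated exon. On this scale Mcl1 made up 93.5% and 93.7% of the summed level of the 3 pro-survival genes in KO1 and KO2, 95.5% in WT1 and 97.8% in WT2. The effectors summed to 156 and 154 CPM per kb in KO1 and KO2, 88.6 in WT1 and 66.2 in WT2, and Bax gave the larger part in every library. The ratio of effectors to pro-survival genes was 1.19, 1.18, 0.521 and 0.279 in that order. With the GC and length trends removed the ratios were 0.668, 0.693, 0.708 and 0.566, so that the knockouts lay between the wild types. Within the BH3-only genes, Bbc3 took 30.4% and 30.2% of the summed level per kb in the knockouts, 12.2% in WT1 and 2.74% in WT2, whereas Pmaip1 took 19.4% and 20.3%, 28.4% and 48.6%. The ratio of BH3-only to pro-survival genes was 0.339 and 0.335 in the knockouts against 0.220 and 0.229 in the wild types. It was 0.289 and 0.288 against 0.230 in both wild types with the trends removed. The ratio was thus above the wild types on both scales, with no test, but the BH3-only sum itself was not. That sum was 44.5, 43.8, 37.4 and 54.3 CPM per kb in KO1, KO2, WT1 and WT2. With the trends removed it was 39.0, 38.7, 39.1 and 50.5. The pro-survival sum was lower in the knockouts, at 131, 130, 170 and 238 CPM per kb, and 135, 134, 170 and 219 with the trends removed.

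**Figure D4:**
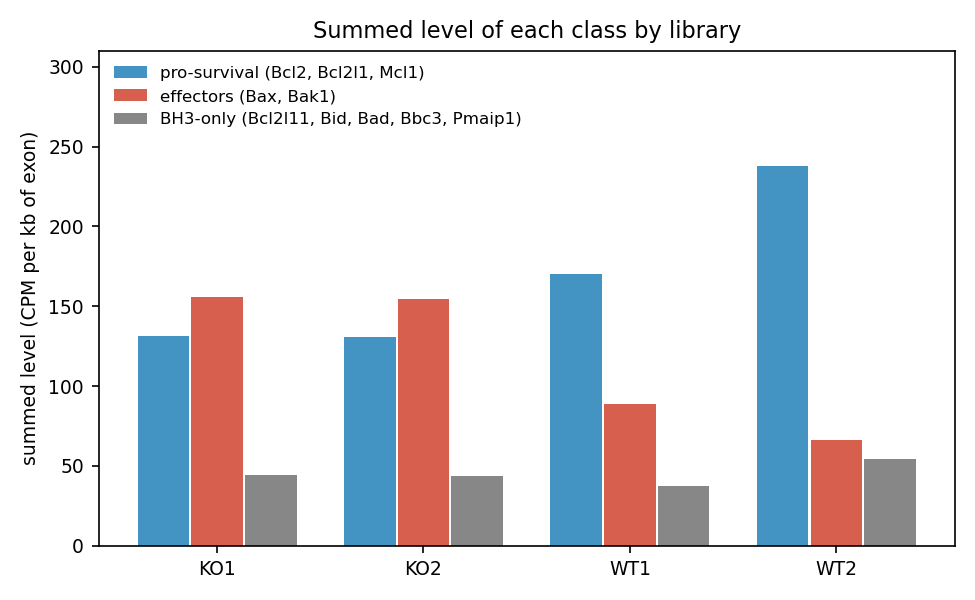
Summed level in CPM per kb of exon of the 3 pro-survival, 2 effector and 5 BH3-only genes in each library, TMM-scaled. Effectors exceed pro-survival genes in KO1 and KO2 (ratios of 1.19 and 1.18) and not in WT1 and WT2 (0.521 and 0.279), an order that did not hold with the GC and length trends removed.

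Apoptosis genes around the family were tested in the same fit, from lists that hold 118 tested genes outside the 10. Of these 6 rose and 2 fell in edgeR, 6.78% against 5.45% of all tested genes, and their median log2 fold change was -0.06. None of the 14 tested further members of the BCL2 family passed, with 4 at an unadjusted p under 0.05, where 37.1% of all tested genes were. The BH3-only gene Bik had the smallest p, at 7.49 CPM (KO1), 7.44 CPM (KO2), 1.78 CPM (WT1) and 0.778 CPM (WT2) (log2 fold change 2.54 ± 0.46, edgeR adjusted p = 0.0539, and 1.45 ± 0.31 with trends removed). Bik was called without the filter on low counts (edgeR adjusted p = 0.0193) and by DESeq2 (adjusted p = 6.79e-06). Bik lies on chromosome 15, where the median log2 fold change of all tested genes was 0.51 and the median of WT2 over WT1 -0.61. Chromosome 15 also holds Drosha, and the medians of chromosome 1, which holds Bcl2 and Casp8, were -0.51 and 0.54. Those of chromosome 7, which holds Bax and Bbc3, were 0.30 and -0.23. On X, which holds Usp9x, Xiap and Huwe1 (described below), they were -0.36 and 0.10. Bak1 and Tpt1 lay on the other side from their chromosomes, 17 (0.29 and -0.15) and 14 (-0.19 and 0.14). The part of these shifts in the levels of single genes was not tested. The BH3-only gene Hrk, named after its values were seen, was at 4.21, 5.16, 10.7 and 21.6 CPM in KO1, KO2, WT1 and WT2 (log2 fold change -1.78 ± 0.41, edgeR adjusted p = 0.0666), and at -1.90 ± 0.44 with trends removed. Bcl2a1a and Bcl2a1b had no count in any library.

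Partners that act on these proteins gave 3 calls among 25 tested genes, 2 higher and 1 lower, where 5.45% of all tested genes were called. Usp9x, a deubiquitinase known to stabilise MCL1, fell from 770 ± 107 to 361 ± 12.9 CPM (SD, n = 2 each), that is by -1.09 ± 0.15 in log2 units (edgeR adjusted p = 0.0482). Tpt1, which encodes a partner of MCL1 and BCL-XL, rose from 59.6 ± 11.9 to 153 ± 8.59 CPM, that is by 1.36 ± 0.19 in log2 units (edgeR adjusted p = 0.0482). The chaperone gene Bag6 rose by 1.02 ± 0.16 in log2 units (edgeR adjusted p = 0.0499). With the GC and length trends removed Usp9x was at -0.43 ± 0.14, Tpt1 at 1.04 ± 0.20 and Bag6 at -0.14 ± 0.13, and none of them passed. Huwe1, which encodes a ubiquitin ligase of MCL1 and was named after its values were seen, was at 622 CPM in both knockouts, 1299 CPM in WT1 and 876 CPM in WT2 (log2 fold change -0.81 ± 0.23, edgeR adjusted p = 0.0877).

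Downstream of the mitochondria, 1 of 17 tested apoptosome and caspase genes passed, where 5.45% of all tested genes did. Endog, which encodes a mitochondrial nuclease, rose from 2.44 ± 0.122 to 7.96 ± 0.480 CPM (SD, n = 2 each), that is by 1.70 ± 0.21 in log2 units (edgeR adjusted p = 0.0482), and was at -0.04 ± 0.31 with trends removed. Apaf1, the scaffold of the apoptosome and named after its values were seen, was at 37.3 and 37.1 CPM in the knockout pair against 70.4 and 50.1 CPM in WT1 and WT2. Of 8 tested inhibitors of apoptosis Xiap, which blocks caspases, fell from 123 ± 7.63 to 64.7 ± 3.05 CPM, that is by -0.92 ± 0.12 in log2 units (edgeR adjusted p = 0.0482, and -0.20 ± 0.13 with trends removed), and 7 did not pass.

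Death receptor genes gave no call among 11 tested, where 5.45% of all tested genes were called. At an unadjusted p under 0.05 in edgeR there were 2, where 37.1% of all tested genes were. The adaptor gene Tradd had the smallest p (4.20 ± 0.437 against 1.76 ± 0.109 CPM, SD, n = 2 each, edgeR adjusted p = 0.0579). The log2 fold change of Tradd was 1.26 ± 0.25, and 0.36 ± 0.28 with trends removed. Of 23 tested regulators upstream of the family Mycn (log2 fold change 1.14 ± 0.16) and the immediate early gene Egr1 (1.14 ± 0.14) rose and 21 did not pass, and 1 of 20 other p53 targets rose. This was Siva1, which encodes a pro-apoptotic protein, at 63.0 and 62.5 CPM in the knockout pair against 29.9 and 25.5 CPM in WT1 and WT2 (log2 fold change 1.18 ± 0.14, and 1.05 ± 0.13 with trends removed). Mycn, Egr1 and Siva1 had an edgeR adjusted p of 0.0482. With trends removed Mycn was at 0.64 ± 0.10 and Egr1 at 0.27 ± 0.24. No gene of these lists passed with the trends removed, where 28 of 118 had an unadjusted p under 0.05 in edgeR against 25.3% of all tested genes, of which 0 passed.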

How the data were processed

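The deposited values were raw counts of reads per Ensembl gene. The submitters' processing notes name STAR 2.4.2a, featureCounts 1.4.5-p1 and the build mm10, and no source used here gives the gene annotation or how strand and multiple hits were counted (not given in the sources used here). Symbols came from a gene name table, and coordinates, exon lengths, transcript GC content and 3′ UTRs from GENCODE M21 of the same build. The test was edgeR 4.0.16 (R 4.3.3, TMM, minimum count 10, minimum total 15, quasi-likelihood fit of group alone, Benjamini-Hochberg over all tested genes). The fit was also run on simulated counts with the same spread in both groups. Because the wild types here varied far more than the knockouts, that run does not check the fit for these data. DESeq2 1.42.0, other scalings and filters, offsets from lowess trends (span 0.3) of each library with GC content and length, and leaving out libraries were alternatives. Ratios of single libraries used a prior count of 2. The members and lists were chosen with earlier results of these data known. Named pathway genes are up to 3 called genes in each direction per list, or else the one with the smallest p, and others are marked. Counts without molecular identifiers make intervals cover counting error only.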

Additional observations from a re-analysis of the deposited data

How the results depend on the processing

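For the 10 genes, 0 calls became 4 with DESeq2, 2 without a filter on low counts and 2 with the replicate number as a block. The latter were Bax and Bbc3 in both cases, with 11.3% of all genes called under the block. With 1 library left out the spread rests on the pair of the other group alone, so the calls of those fits are not given. Calls over all genes, 927 in edgeR, were 3757 with DESeq2, 2663 without a filter, 1440 with at least 1 CPM in 2 libraries, 1929 with the block, 0 with upper-quartile scaling, library totals alone, trends removed (with or without the block) or knockouts summed (6267, 6116, 4300, 3227 and 1888 at an unadjusted p under 0.05), and 0 to 13658 with 1 library left out. Calls among the pathway genes, 8 in edgeR, were 32, 23 and 13 in the first 3 of these settings, 12 with the block (Bik among them, adjusted p = 0.0236), 0 in the same settings as above, and 0 to 106 with 1 library left out. The labels do not say that replicate numbers pair the libraries, and the correlation of the 2 groups' differences between numbers was 0.124 over 12583 genes. Signs turned with trends removed for Bcl2l1 (-0.23, and -0.23 with the block), Bax (-0.26 and -0.25), Bag6 (-0.14 and -0.14) and Endog (-0.041 and -0.0040), with library totals for Bak1 (0.028), and without WT2 for Bak1 (from -0.33 to 0.11 over the libraries left out) and Bcl2l11 (-0.036 to 0.59). The cause of these turns was not tested. Groups did not overlap for 8 of 10 genes with RLE and upper-quartile scaling (71.3% and 71.2% of all genes), 9 with library totals (70.8%) and 9 with trends removed (61.1%), where 5 higher and 3 lower became 4 higher and 5 lower. Depth limits Bcl2, at 12 to 36 counts.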
